A study of Drosophila melanogaster with 2 samples.

Results

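Chromatin remodellers are enzymes that use ATP to slide, evict or exchange nucleosomes, and the 10 genes described here encode ATPases and subunits of the main remodelling complexes of the fruit fly Drosophila melanogaster. The genes were chosen by name from the gene annotation, and they are brm, mor, osa, Snr1, Iswi, E(bx), Mi-2, Chd1, kis and dom, 10 of the 13945 protein-coding genes on the chromosome arms. All 10 were found in the annotation. For each gene, every peak summit within 500 bp of one of its transcription start sites (TSS) or inside its body was collected. A summit is the base at which a peak is highest.

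The study measured where the protein CG11247 sits on the genome by chromatin immunoprecipitation followed by sequencing (ChIP-seq), in which DNA bound by a protein is pulled down with an antibody and sequenced. CG11247 carries zinc fingers of the C2H2 type, which many DNA-binding proteins use to read bases. The single group was whole embryos, 0 to 24 h old, of the transgenic strain CG11247-GFP, in which CG11247 carries an eGFP tag (enhanced green fluorescent protein), and an anti-GFP antibody was used. The group had 2 biological replicates of the same strain, each with its own biosample and library, and there was no other genotype, treatment or time. Embryos of this age span all of embryogenesis and were not separated by tissue or stage, so a peak does not tell in which cells the protein was bound. Which promoter drives the fusion is not given in the labels.

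Remodellers of the SWI/SNF family, to which the Brahma complex of the fly belongs, loosen or remove nucleosomes at enhancers and promoters. ISWI-type enzymes space nucleosomes evenly, CHD-type enzymes act on elongating genes or, as in the NuRD complex, on silenced ones, and INO80-type enzymes exchange histone variants. In the fly embryo several of these genes are known from genetic screens as members of the Trithorax group, which keeps homeotic genes active.

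The files are lists of peaks on the dm6 assembly. The pooled ranked list held 137752 peaks, made from the reads of both replicates together, and 4495 of them formed the thresholded list. Peaks of that thresholded list are called passing here. They have an irreproducible discovery rate (IDR), a measure of how well the rank of a peak repeats between inputs, of at most 0.01, which is a −log10 IDR of at least 2. The other lists were a conservative set of 4093 peaks, thresholded after ranking the 2 true replicates against each other, and lists for each replicate alone, with 109282 ranked and 3010 passing peaks in replicate 1 and 125735 ranked and 2695 passing peaks in replicate 2. Peak signal is a score that the authors' caller gave each peak. It has no unit and can be read only within a list, where the median was 26.0 over the pooled ranked peaks and 120.4 over those that passed. Read depth is unknown, and the control experiment was not analysed here, so a passing peak does not tell CG11247 from background that the antibody brings down everywhere.

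CG11247-eGFP had passing promoter peaks at 4 of the 10 remodeller genes, which were brm, dom, Chd1 and kis. In the background, 18.6% of all 13945 protein-coding genes had a passing summit within 500 bp of a TSS, and 23.7% of the 10966 genes with a ranked summit there. Of the 10 remodeller genes, 8 had a ranked summit at a promoter, all but Snr1 and E(bx). When summits inside the gene body were counted as well, osa and Mi-2 were added, and 6 of the 10 genes had a passing summit. The matching background was 24.1% of all genes and 27.7% of the 12152 genes with a ranked summit at a promoter or in the body. This background was not matched for gene length, and longer genes have more room for summits. Of the 10 remodeller genes 6 were 10 kb or longer, as were 1977 of all 13945 protein-coding genes. With 1 group of 2 replicates no test over samples is possible, so these counts are a description. In the conservative set 4 genes had a passing promoter, beside 17.3% of all genes, and they were brm, dom, Chd1 and E(bx). Replicate 1 alone gave 3 (brm, Chd1 and E(bx), beside 14% of all genes) and replicate 2 alone gave 3 (brm, kis and E(bx), beside 13.6%). Among the stronger 50% of passing peaks by signal, 2 genes had one, brm and Chd1, beside 12.2%. The promoter of brm passed in every one of these lists.

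The 10 genes held 193 ranked summits, and 11 of them passed, or 5.70%, against 3.33% of the 134262 ranked summits on the chromosome arms. The passing summits lay in introns and at promoters. Of the 74 intronic summits 7 passed (9.46%, against 2.97% on the arms), and of the 15 promoter summits 4 passed (26.7%, against 11.7%). None of the 102 summits in coding exons passed, where 0.552% of such summits passed on the arms. These classes are not like for like. At the 10 genes only the gene's own TSSs and exons counted, and on the arms those of any protein-coding gene. For instance, brm summits near the starts of genes nested in its introns were classed as intronic, so the shares by class are only a rough guide. The median signal was 198.0 over the 11 passing summits of these genes and 120.5 over all passing summits on the arms.

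**Figure D1:**
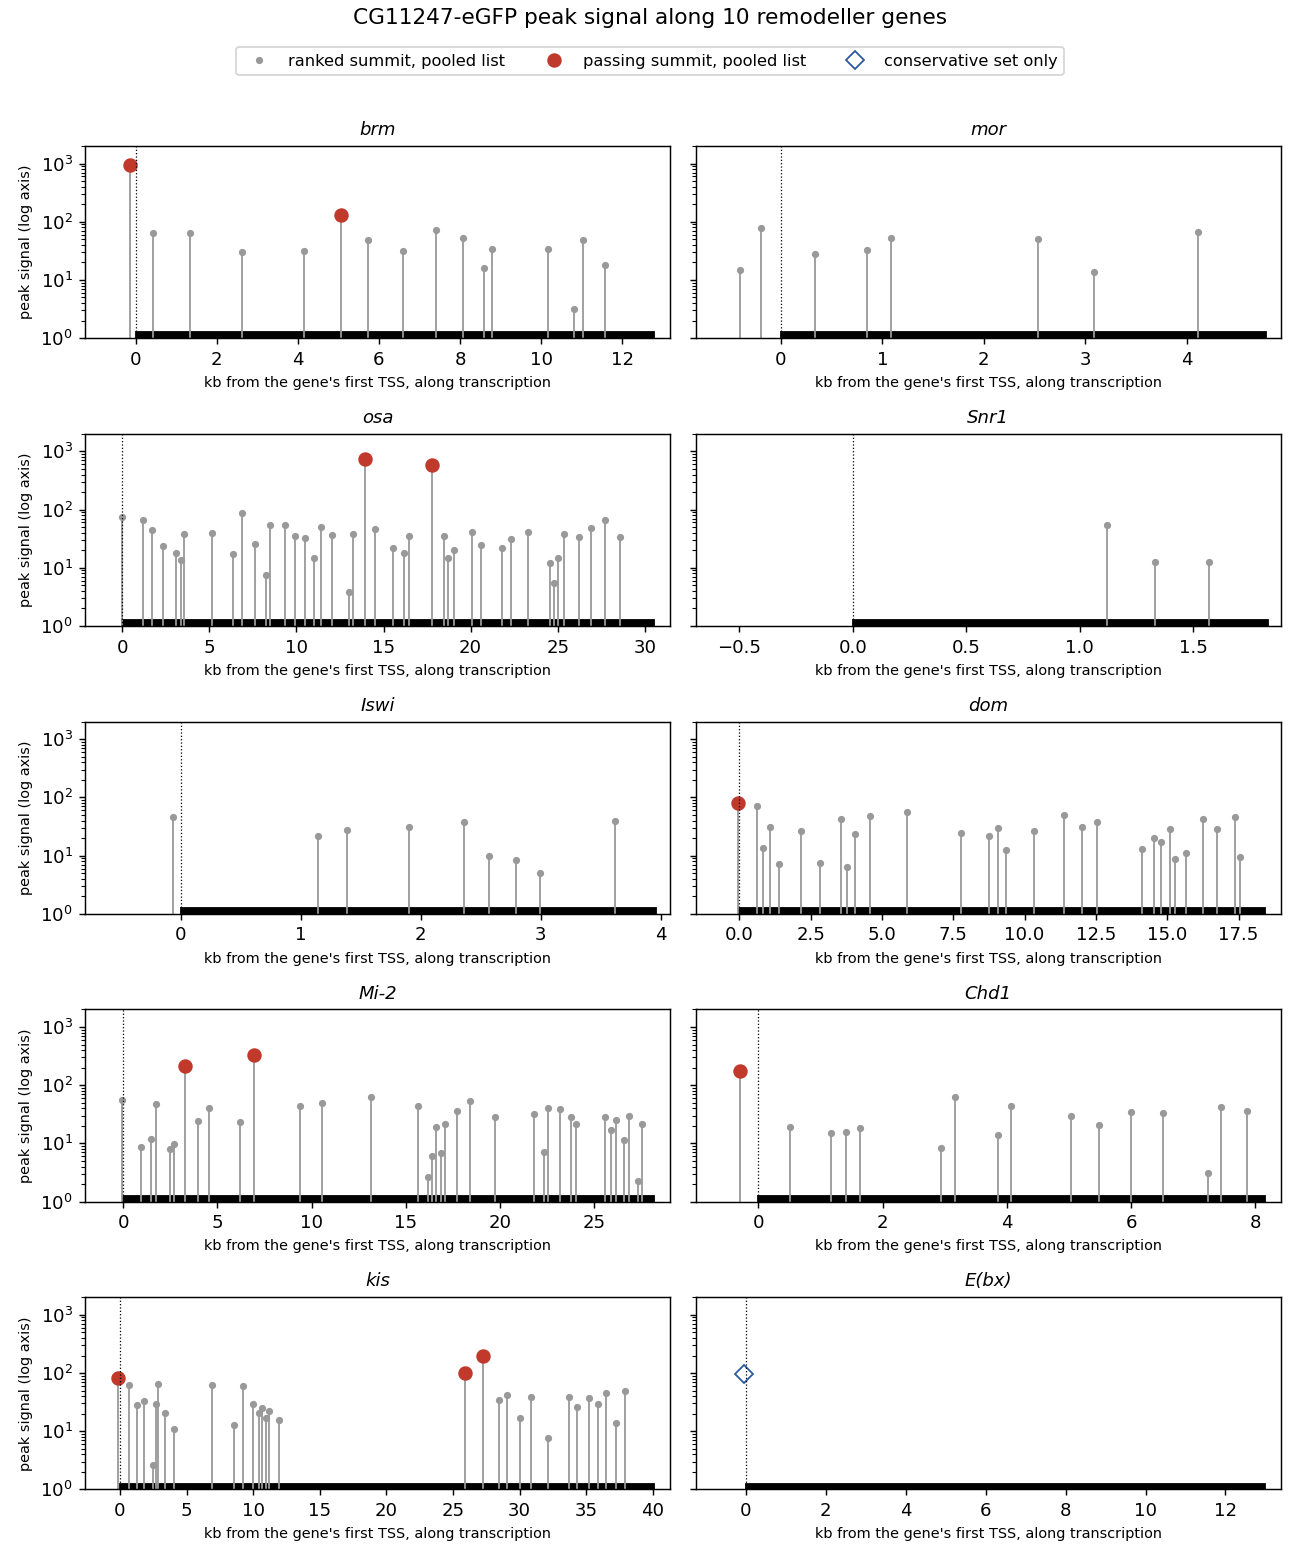
Peak signal (log axis) of every ranked summit along each of the 10 remodeller genes, by distance in kb from the gene's first TSS along the direction of transcription (dotted line), with the gene body as a black bar. Small grey points are ranked summits of the pooled list, large red points are the 11 that passed, and the open diamond at E(bx) is the promoter peak of 97.7 that is found in the conservative set but not in the pooled list. The highest points are the brm promoter at 931.2 and an osa intron at 747.3, and E(bx) has no pooled summit at all.

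The strongest site was the promoter of brm (FBgn0000212), which encodes Brahma, the ATPase of the SWI/SNF-type complexes BAP and PBAP. The gene lies on the minus strand of 3L at 15970082 to 15982869 and has TSSs 20 bp apart. The promoter peak (15982867 to 15983150) had its summit at 15983007, which is 138 bp upstream of the nearer brm TSS and 128 bp upstream of the TSS of Arl1, a small GTPase gene of the Golgi that is transcribed the other way. Its pooled signal was 931.2, rank 49 of the list. It was 514.2 at rank 49 in replicate 1 and 412.4 at rank 53 in replicate 2, and it passed in both. The replicates' summits were 1 bp apart. The 101 bases centred on the summit are shown because the site is among the strongest of the genome and its base composition is unusual: 14.9% of them are G or C, and 0.0894% of the windows of all passing summits had a lower share. They are given on the plus strand of dm6, chr3L:15982957-15983057, with the summit as base 51 and with capitals for matches to the motifs searched here, TATAAA and TAATTA in this case.
brm promoter: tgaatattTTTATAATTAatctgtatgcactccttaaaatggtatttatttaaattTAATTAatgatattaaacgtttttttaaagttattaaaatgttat

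A second passing summit in brm lay in an intron, 5057 bp into the gene from the first TSS (15977640 to 15977983, summit 15977812), where the small gene CG17029 is nested on the other strand and also has an intron. Its pooled signal was 130.9, rank 2082. In replicate 1 the peak had a signal of 86.2, rank 1596, and passed. In replicate 2 it had 46.4, rank 3605, with a −log10 IDR of 0.177, and did not pass. This summit thus passed in 1 of the 2 replicates, unlike the promoter peak. The other 14 ranked summits of brm had signals of at most 71.2.

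The gene osa (FBgn0261885, 3R, 17687818 to 17718350, minus strand) encodes the ARID-domain subunit that defines the BAP form of the Brahma complex. It had 43 ranked summits in 30.5 kb, and 2 passed, both deep in introns. The stronger one (17704291 to 17704552, summit 17704408) lay 13942 bp downstream of the TSS, inside an exon of lncRNA:CR46035, a noncoding gene on the other strand. Its signal was 747.3 at rank 87 in the pooled list, 433.2 at rank 81 in replicate 1 and 332.8 at rank 83 in replicate 2. The other one (17700426 to 17700706, summit 17700574) lay 17776 bp downstream of the TSS and 167 bp upstream of the TSS of lncRNA:CR46036. Its signal was 576.5 at rank 134 in the pooled list, 385.3 at rank 101 in replicate 1 and 192.4 at rank 258 in replicate 2. Both passed in both replicates, and they were the highest summits in these genes after the brm promoter. Their windows are shown to set an intronic site beside a promoter: the first had 33.7% G or C, the second 18.8%. They are given on the plus strand, chr3R:17704358-17704458 and chr3R:17700524-17700624, with the summit as base 51 and capitals for TATAAA and GCCAT.
osa intron, stronger summit: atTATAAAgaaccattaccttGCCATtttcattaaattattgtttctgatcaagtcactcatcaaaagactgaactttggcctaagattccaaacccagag
osa intron, other summit: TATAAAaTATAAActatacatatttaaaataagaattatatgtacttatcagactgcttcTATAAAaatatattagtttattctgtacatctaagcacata

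The promoter of osa itself did not pass. Its summit lay 9 bp downstream of the TSS with a pooled signal of 73.3, a −log10 IDR of 1.26 and replicate signals of 32.8 and 40.1. A further intronic summit 1163 bp downstream of the TSS had a signal of 66.8 and a −log10 IDR of 2.32, which is past the limit, and was nevertheless not in the thresholded list. In replicate 1 the peak there had a signal of 24.0, and in replicate 2 it had 58.0.

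The gene mor (FBgn0002783, 3R, 15968134 to 15972913, minus strand) encodes Moira, the scaffold subunit of the Brahma complexes. None of its 8 ranked summits passed. The highest lay at the promoter (15972939 to 15973282, summit 15973111), 198 bp upstream of the mor TSS and 187 bp upstream of the divergent TSS of Hel89B, which encodes a SNF2-family ATPase. Its signal was 77.0, rank 4859, with a −log10 IDR of 2.22 in the pooled list and 2.62 on the true replicates. Both are past the limit of 2, and the peak was still absent from the thresholded list and from the conservative set. A second promoter peak (15973145 to 15973488, summit 15973317) overlapped it, with a signal of only 14.8, rank 102926. Its −log10 IDR was likewise 2.22 and 2.62, and it was absent from the same lists. The replicate peaks overlapped both of these peaks. Replicate 1 had a signal of 55.9 with a −log10 IDR of 0.0804, and replicate 2 had 46.6 with 2.12. The replicates' summits lay 136 bp apart, farther than at any passing summit of the 10 genes, where the distance was 1 to 78 bp. The lists held 151 such absent peaks among the 4646 past the limit, or 3.25%, and 47.0% of them were on 3R, which held 23.0% of the passing peaks. Of the 151, 3 lay at the 10 genes. The thresholded lists had 1 more input, which the listing that accompanies the files does not describe, and its part in these absences was not tested.

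The gene Snr1 (FBgn0011715, 3R, 5470926 to 5472754, plus strand) encodes the SNF5-type core subunit of the Brahma complexes and is the shortest of the 10 genes at 1829 bp. It had 3 ranked summits, all in coding exons, and none passed. The highest had a pooled signal of 53.7, rank 14415. Replicate 2 had a peak of 38.4 at that place, and replicate 1 had no ranked peak there. Within 500 bp of the Snr1 TSS, replicate 1 had a ranked summit 16 bp upstream with a signal of 27.7 and a weaker one 358 bp downstream with 7.14. The list ranked on the true replicates had 1 there, 352 bp downstream with a signal of 7.01, and the pooled list and replicate 2 had none. Within the Brahma complex, then, signals ran from 931.2 at the ATPase gene to no promoter summit of the pooled list at Snr1.

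Of the CHD-type genes, Chd1 (FBgn0250786, 2L, 2979562 to 2987723, minus strand) encodes an ATPase that travels with elongating RNA polymerase and is known in the fly for the assembly of the variant histone H3.3 into chromatin. It had 1 passing summit among 16 ranked, at the promoter (2987841 to 2988184, summit 2988013). The summit lay 290 bp upstream of the nearest Chd1 TSS and 103 bp upstream of the divergent TSS of Bem46. Its signal was 174.2, rank 1322, in the pooled list. It was 77.4 in replicate 1, rank 1874, where it passed, and 73.1 in replicate 2, rank 1609, where its −log10 IDR of 1.73 missed the limit. The ranks were thus close, although the calls differed. The window is shown because, of the 11 passing summits, it alone had the DNA replication-related element TATCGATA within 100 bp, 84 bp away and outside the bases printed. Capitals mark the shorter CGATA, on either strand, on chr2L:2987963-2988063, plus strand, with the summit as base 51.
Chd1 promoter: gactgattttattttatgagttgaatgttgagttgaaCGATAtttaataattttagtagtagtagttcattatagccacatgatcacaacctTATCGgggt

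The gene kis (FBgn0266557, 2L, 210735 to 250823, minus strand) encodes Kismet, a CHD-type ATPase of the Trithorax group that promotes transcription elongation. It is the longest of the 10 genes at 40.1 kb and had the most passing summits, 3 of 32 ranked. The promoter summit (250765 to 251108, summit 250937) lay 114 bp upstream of the first TSS, with no other gene's TSS within 500 bp, and had a pooled signal of 83.6, rank 4046. Its signal was 54.3 at rank 2656 in replicate 2, where it passed, and 30.3 at rank 13428 in replicate 1, where it did not. By score alone it was the only passing site of these genes that was higher in replicate 2, though scores of different lists are not on 1 scale. It was not in the conservative set. A stronger summit lay in an intron (223377 to 223720, summit 223549), 1587 bp upstream of the inner TSS of kis and 30 bp inside the noncoding gene lncRNA:CR44222. Its signal was 198.0 at rank 1067 in the pooled list, 123.4 at rank 895 in replicate 1 and 89.0 at rank 1187 in replicate 2, and it passed in both. The third (224724 to 225067, summit 224896) lay 2934 bp upstream of the inner TSS, with 100.6 in the pooled list, 53.6 in replicate 1, where it passed, and 37.5 in replicate 2, where it did not. The promoter and the stronger intronic site are shown because they are the passing sites nearest to the first and to the inner TSS. The windows are chr2L:250887-250987 and chr2L:223499-223599, plus strand, with the summit as base 51 and capitals for CGATA in the first window, for GCCAT in both and for TATAAA in the second, on either strand.
kis promoter: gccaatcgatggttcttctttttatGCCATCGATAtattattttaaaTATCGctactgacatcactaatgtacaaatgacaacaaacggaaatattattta
kis intron near the inner TSS: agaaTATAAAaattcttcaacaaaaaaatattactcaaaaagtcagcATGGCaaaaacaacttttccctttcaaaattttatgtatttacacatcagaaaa

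Further signal in kis passed in replicate 1 alone. A summit 6925 bp downstream of the first TSS, at 243898, had a signal of 55.5 and passed in replicate 1. The pooled list had 61.5 there with a −log10 IDR of 1.63, which did not pass, and the strongest overlapping peak of replicate 2 had 26.2, rank 22890. The pooled list also had no ranked summit over 13990 bp of the gene, from 224896 to 238886. Replicate 1 had 11 ranked summits in that stretch at least 500 bp from its ends, and replicate 2 had 0.

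The gene Mi-2 (FBgn0262519, 3L, 19882051 to 19910215, minus strand) encodes the CHD-type ATPase of the NuRD and dMec repressor complexes. Of its 36 ranked summits 2 passed, both in introns near the 5′ end of the gene and both also within introns of Su(Tpl), an overlapping gene on the same strand that encodes an elongation factor. The stronger one (19903199 to 19903369, summit 19903261) lay 6954 bp downstream of the first TSS. Its signal was 334.3 at rank 439 in the pooled list, 196.3 at rank 394 in replicate 1 and 130.3 at rank 609 in replicate 2. The other one (19906920 to 19907029, summit 19906948) lay 3267 bp downstream. Its signal was 215.2 at rank 954 in the pooled list, 122.5 at rank 907 in replicate 1 and 97.2 at rank 1027 in replicate 2. Both passed in both replicates. The promoter summit, 41 bp upstream of the Mi-2 TSS and close to the start of the splicing gene Prp3, did not pass, with a signal of 55.5 and rank 13000 in the pooled list, rank 65706 in replicate 1 and rank 3740 in replicate 2. The window of the stronger summit is shown because none of the 10 motifs searched here was found in it. It is chr3L:19903211-19903311, plus strand, with the summit as base 51, and it has no capitals.
Mi-2 intron, stronger summit: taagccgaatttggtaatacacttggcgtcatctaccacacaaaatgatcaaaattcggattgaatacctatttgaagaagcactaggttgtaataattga

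The gene E(bx) (FBgn0000541, 3L, 233926 to 246912, minus strand) encodes the largest subunit of NURF, the complex in which the ISWI ATPase slides nucleosomes, and its PHD finger binds methylated histone H3. No ranked summit of the pooled list lay at E(bx), in 13.0 kb, while the other 9 genes held 7.73 to 20.2 ranked summits per 10 kb. Each replicate nevertheless had a passing promoter peak. Replicate 1 had a signal of 58.5 at rank 2756 there, with its summit 94 bp upstream of the TSS, and replicate 2 had 50.4 at rank 3066, with its summit 84 bp upstream. In the list ranked on the true replicates the peak (246795 to 247138, summit 246967) had a signal of 97.7, rank 3097, and a −log10 IDR of 2.72, and it was in the conservative set. The pooled list had no ranked summit over 29129 bp, from 229142 to 258271, where the median distance between neighbouring summits was 640 bp. On the arms other than chromosome 4, 223 of 134242 distances were as long or longer. Counted by gene, 116 of the 1977 protein-coding genes of 10 kb or more (5.87%) had no ranked summit in the body. That share includes the genes of chromosome 4. Of the 4078 conservative peaks on the arms, 22 (0.539%) were absent from the pooled ranked list. The count of 4 promoters given above thus leaves out a gene that passed in both replicates, and why the pooled list has no summit there was not tested. The window is shown because the lists disagree on this site. It had 49.5% G or C, more than any other window printed here. It is chr3L:246917-247017, plus strand, with the summit as base 51, and these bases hold no match to the motifs searched.
E(bx) promoter: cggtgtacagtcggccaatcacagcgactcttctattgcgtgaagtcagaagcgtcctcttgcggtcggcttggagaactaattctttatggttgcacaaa

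**Figure D2:**
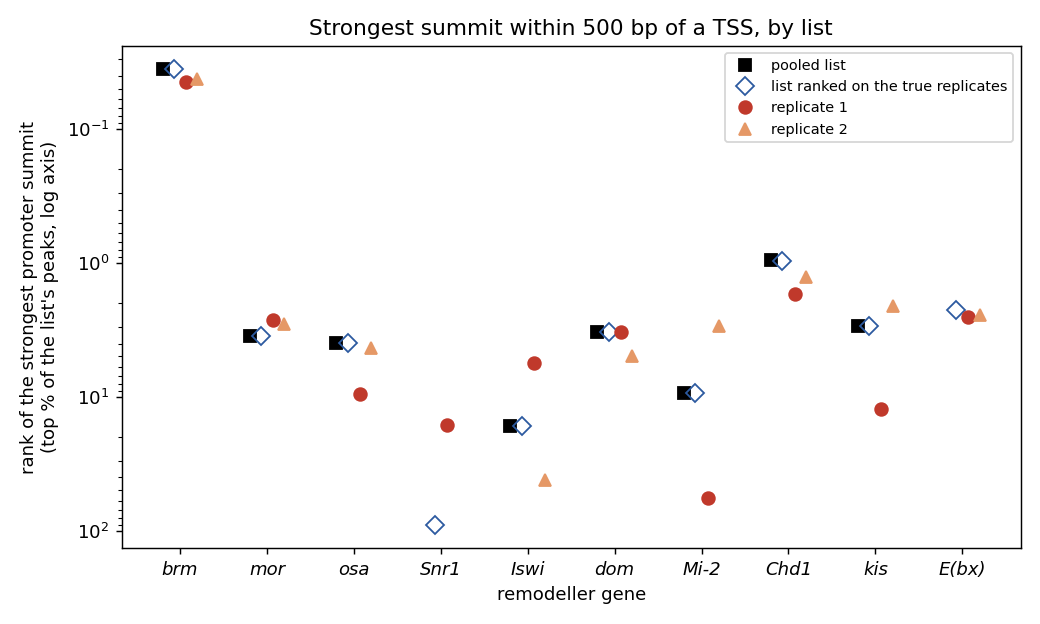
Rank of the strongest summit within 500 bp of a TSS of each remodeller gene, as the top percent of the list's peaks (log axis, stronger at the top), in the pooled list, the list ranked on the true replicates and the lists of replicates 1 and 2. The brm symbols lie together between 0.0356% and 0.0448%, those of Mi-2 spread from 2.97% in replicate 2 to 56.7% in replicate 1, and E(bx) has no symbol for the pooled list. The Mi-2 symbols are not all 1 summit. That of replicate 1 lies 338 bp downstream of the inner TSS and the others 41 bp upstream of the first TSS, where replicate 1 was at 60.1%.

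The gene dom (FBgn0020306, 2R, 21323430 to 21341847, plus strand) encodes Domino, the INO80-type ATPase that exchanges the histone variant H2A.V in the Tip60 complex. Of its 30 ranked summits 1 passed, at the promoter (21323221 to 21323564), 37 bp upstream of the dom TSS and 73 bp upstream of the divergent TSS of CG30394. Its signal was 79.6 at rank 4483 in the pooled list, with a −log10 IDR of 2.37. In replicate 1 it was 49.4 with a −log10 IDR of 1.65, and in replicate 2 it was 38.5 with 0.860. It was the only one of the 11 passing summits that passed in neither replicate alone, and the weakest of the 11. The gene Iswi (FBgn0011604, 2R, 12636671 to 12640628, plus strand) encodes the ATPase shared by the NURF, ACF and CHRAC complexes. Its promoter summit lay 68 bp upstream of the TSS and 462 bp from the starts of Mvk and CG33672. It had a pooled signal of 46.3, rank 22848, and signals of 39.0 and 18.2 in replicates 1 and 2, and it did not pass. None of the other 8 ranked summits of Iswi, all in coding exons, was higher.

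Across the strongest promoter summits, the order in the pooled list was brm (931.2), Chd1 (174.2), kis (83.6), dom (79.6), mor (77.0), osa (73.3), Mi-2 (55.5) and Iswi (46.3). Among these 8 genes brm was first and Chd1 second in both replicates, and E(bx), absent from the pooled list, lay between Chd1 and the others in replicate 1 (58.5). Below them the order changed in part between replicates. The gene mor was above dom and osa in both, at 55.9 against 49.4 and 32.8 in replicate 1 and at 46.6 against 38.5 and 40.1 in replicate 2. The gene kis was the lowest of these 4 genes in replicate 1 (30.3) and the highest in replicate 2 (54.3), and dom and osa changed places. Iswi (39.0) was above osa and kis in replicate 1, and Mi-2 (45.7) was above osa and dom in replicate 2.

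Of the 11 passing summits, 6 passed in both replicates, 4 in 1 of them and 1 in neither. Of all passing summits on the arms, 45.6% passed in both and 25.1% in neither. The 6 were the brm promoter, both osa introns, both Mi-2 introns and the kis intron near the inner TSS. Signals of different lists are not on 1 scale, so the ratio of replicate 1 to replicate 2 was read only against the same ratio at other peaks. It was above 1 at 10 of the 11 sites and ran from 0.558 at the kis promoter to 2.00 at the weaker osa site. Over all passing peaks its median was likewise above 1, at 1.16, with quartiles of 0.903 and 1.44.

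**Figure D3:**
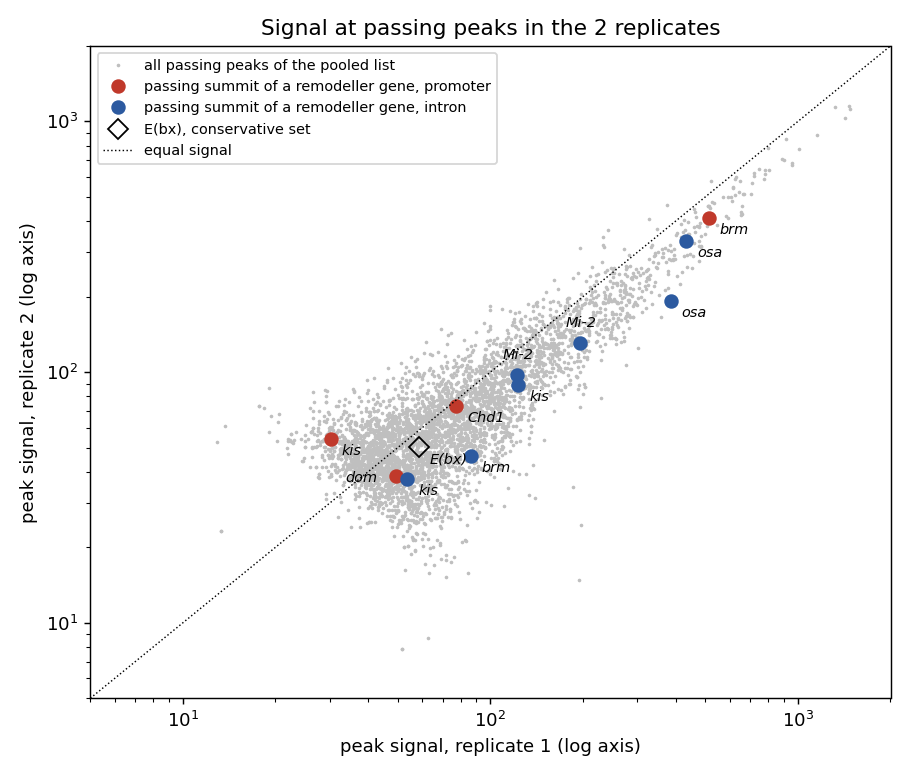
Peak signal in replicate 1 (x axis) against replicate 2 (y axis), both log axes without units, for passing peaks of the pooled list that overlapped a ranked peak in each replicate (grey), the passing summits of the remodeller genes at promoters (red) and in introns (blue), and the E(bx) promoter peak of the conservative set (open diamond). The dotted line marks equal signal, and 10 of the 11 remodeller sites lie below it, all but the kis promoter. The median ratio of replicate 1 to replicate 2 over all passing peaks was 1.16, also below the line.

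At 3 of the 4 promoters that passed, which were brm, Chd1 and dom, a divergent gene had its TSS within 500 bp of the same summit, and at brm and Chd1 that other TSS was the nearer one. On the arms, 36.0% of the 2079 passing promoter summits and 10.9% of the 15704 that did not pass had TSSs of more than 1 protein-coding gene within 500 bp. These shares count each summit once, whereas the counts at the 10 genes are by gene. Counted by gene, a shared summit counts for each of its genes, so the shares and the counts are not like for like. The share by gene was not computed. Of the 4 strongest promoter summits of these genes that did not pass, 3 (mor, Iswi and Mi-2) also lay within 500 bp of another gene's TSS, and that of osa did not. If a summit was counted for the nearest TSS alone, 2 of the 10 genes had a passing promoter, dom and kis, against 14% of all genes. Of the 7 intronic sites, 3 lay in or near noncoding genes (both osa sites and the stronger kis site) and 3 lay in introns of another protein-coding gene (the brm site and both Mi-2 sites). The weaker osa site lay 167 bp upstream of its noncoding gene and outside it. The matching share over all intronic summits was not computed, so these counts do not set the sites apart from others.

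The sequences did not share a common motif among those searched. Both strands were searched for 10 motifs in the 100 bp to each side of the 11 passing summits. The short site CGATA, bound by BEAF-32, was in 4 of the 11 windows (an intronic site each of brm and kis, and the Chd1 and kis promoters), against 38.9% of all 2079 passing promoter windows and 20.7% of the 2397 other passing windows. It lies inside the DNA replication-related element TATCGATA, which was in 1 window against 7.94% and 0.376%. The GAGA site GAGAG was in 4 windows (23.5% and 24.9%), TATAAA in 6 (31.0% and 26.5%), the Pho core GCCAT in 3 (28.5% and 33.2%), TAATTA in 3 (15.1% and 12.8%) and the CTCF core AGNNGGCGC in 1 (3.42% and 5.30%). The E-box CAGCTG was in 0 of the 11 windows (13.7% and 7.84%). The Zelda site CAGGTAG (0.625% and 0.918%) and GGTCACACT, the core of Motif 1 (3.13% and 0.167%), were also in 0. The median share of G or C in the windows of 101 bp was 30.7% at the 11 sites, 38.6% at passing promoter summits and 37.6% at other passing summits. The part of this difference in the counts of AT-rich motifs such as TATAAA was not tested. Words of 8 bases were counted in the narrower window of 50 bp to each side, at the other 4465 passing summits and in flanks 500 bp away. Of the 20 words with the highest ratio of summit to flank, among those in 40 or more windows, 1 was within 50 bp of a passing summit of these genes, GGTCACAC at dom. Each of the 20 words was in 0.896% to 2.28% of the 4465 other summit windows, and GGTCACAC was in 0.941%. The 1 match therefore does not set these genes apart.

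Other genes of the same and related complexes were bound as well. Of 45 further remodeller genes, 13 had a passing promoter summit (28.9%, against 18.6% of all genes and 23.7% of those with a ranked promoter summit). At the promoter or in the body, 14 had one (31.1%, against 24.1% of all genes and 27.7% of those with a ranked summit there). The count depends on the list: 4 passed in replicate 1 alone (8.89%, against 14% of all genes), 4 in replicate 2 alone (8.89%, against 13.6%) and 3 among the stronger 50% of peaks (6.67%, against 12.2%). The share thus lay below that of all genes in these 3. It lay above in the pooled list and under the other settings described at the end. Among those were the conservative set (22.2%, against 17.3%) and the nearest TSS only (17.8%, against 14%). The strongest were Ino80 (378.2), the ATPase of the INO80 complex, and MEP-1 (238.0), the partner of Mi-2 in dMec, and both passed in each replicate. Bap60 of the Brahma complex had 127.6, MBD-like of NuRD had 114.7, MrgBP of the Tip60 complex 112.2, Arp5 of INO80 103.1, the ATRX-type ATPase XNP 101.6, the INO80 helicase subunit rept 93.6, Acf of the ACF complex 93.3 and Act87E, an actin, 82.9, all as pooled signals. The other bound genes were simj, Marcal1 and tou. By complex, 3 of 6 genes of INO80, 3 of 6 of NuRD and dMec, 2 of 7 of the ISWI complexes, 2 of 12 of the Tip60 complex, 2 of 6 other SNF2-family genes and 1 of 8 of the Brahma complexes were bound. The signal of the brm promoter was higher than that of any of the 45.

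For each bound promoter the gene with the most similar set of 3 signals (pooled, replicate 1 and replicate 2) was sought among 2569 bound genes, by Euclidean distance of log2 signals. It was Rtnl1 for brm (distance 0.07), MICAL-like for dom (0.06), CG18809 for Chd1 (0.14) and CG31473 for kis (0.04). Rtnl1 had a pooled signal of 911.6, with 505.5 and 396.4 in the replicates.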

How the data were processed

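Per the labels, chromatin of embryos was sheared by sonication to 200 to 800 bp and precipitated with anti-GFP. The authors deposited peak lists on dm6 without a header, which hold a peak signal (a score of the caller with no fixed range) and, in the ranked lists, a −log10 global IDR, as read from the column positions of the narrowPeak and IDR formats. No source used here names the caller or the aligner. The deposited thresholded lists were used as they are. Read depth is unknown, so precision rests on the numbers of peaks and on the 2 replicates, and no intervals or tests are given.

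Summits were assigned to genes of Ensembl release 115 and sequence was read from RefSeq's reference genome, both on FlyBase assembly release 6, the same coordinates as dm6. A promoter summit of a gene lies within 500 bp of one of that gene's TSSs. For the shares over the arms it lies within 500 bp of a TSS of any protein-coding gene. A summit elsewhere in a gene was classed by the first that applied of UTR, coding exon and intron. This used the gene's own annotation at the 10 genes and that of any protein-coding gene over the arms. A replicate's value at a site is its strongest overlapping ranked peak (1 bp or more). On simulated summits the code for the promoter call returned what the same 500 bp rule gives. The other steps of the assignment were not checked in this way. Analyses used Python 3.11.15, pandas 2.3.3 and numpy 2.4.6. All 10 genes were named, with the other remodeller genes that were bound, the genes that share a summit, and the gene most like each bound promoter. The members and lists were chosen with earlier results of these data known.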

Additional observations from a re-analysis of the deposited data

How the results depend on the processing

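Counts were recomputed with the conservative set, with absent peaks past the IDR limit added, with the stronger 50% of peaks, at 200 and 1000 bp, with peak intervals in place of summits, with the first or the nearest TSS only, without overlapping weaker peaks and with each replicate alone. Remodeller genes with a passing promoter, 4 in the main count, came to 2 in the stronger 50% (beside 12.2% of all genes) and 2 with the nearest TSS only (beside 14%). Otherwise they came to 3, 4 or 5, where the share of all genes ran from 13.6% to 21.9%. The 4 of the conservative set were brm, dom, Chd1 and E(bx), without kis. Genes with a passing summit anywhere (6) ranged from 5 to 7, where the share of all genes ran from 15.6% to 25.9%. Of the other 45 genes, bound promoters (13) came to 3 in the stronger 50%, 8 with the nearest TSS only, and 4 with either replicate left out. With the nearest TSS only their share was 17.8%, against 14% of all genes. The share fell below that of all genes in the stronger 50% (6.67% against 12.2%). It also fell below with replicate 1 (8.89% against 13.6%) or replicate 2 (8.89% against 14%) left out. Those with a summit anywhere (14) came to 6 in the stronger 50% (13.3% against 15.6% of all genes). They came to 7 with either replicate left out (15.6% against 17.2% without replicate 1 and 18.2% without replicate 2). The cause was not tested. The rank of the strongest promoter summit of Mi-2 was at 9.44% in the pooled list, 56.7% without replicate 2 and 2.97% without replicate 1. The value without replicate 2 is from a summit at the inner TSS. At the summit of the other 2 values, replicate 1 was at 60.1%. Within 50 bp of the summit, CGATA was in 2 of the 11 windows, against 22.9% of passing promoter windows and 11.1% of other passing windows. GAGAG was in 1 (11.45% and 11.2%), TAATTA in 1 (7.70% and 6.59%) and TATAAA in 5 (17.9% and 15.9%). GCCAT was in 3 (16.2% and 19.1%), TATCGATA in 0 (3.8% and 0.209%) and the CTCF core in 0 (2.36% and 3.50%). No paired analysis was possible because the labels give 1 group. Without read counts or the control, signals cannot be set on a common scale, and no replicate error beyond the 2 values can be given.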
